A study of Rattus norvegicus with 12 samples.

Results

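The genes described here are the nuclear genes for subunits of the 5 complexes of oxidative phosphorylation, measured by RNA-seq in primary rat atrial fibroblasts. They were chosen by a rule on symbols, which was set with earlier results of these data known. The symbols were Nduf followed by a, b, c, s or v and a digit (complex I), Sdha to Sdhd (complex II), Uqcr (complex III), Cox4 to Cox8 followed directly by a, b or c (complex IV), and Atp5 (complex V). The rule found 86 of the 22850 genes in the tables, of which 40 belonged to complex I, 4 to complex II, 8 to complex III, 16 to complex IV and 18 to complex V. Cox7b2, Cox8c and Ndufb4l1-ps1 had 0 counts in all 12 libraries and Atp5hl1 had 4 counts at most. The other 82 members passed the filter on low counts in all comparisons.

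The cells came from the atria of newborn Sprague-Dawley rats and were enriched by differential adhesion, not sorted. All 12 libraries were exposed for 48 h to 1 µmol/L angiotensin II (AngII), a hormone that drives fibroblast activation. The 3 groups of 4 libraries were AngII alone, AngII+HNG and AngII+MOTS-c, where the peptides were added 1 h before AngII, HNG at 10 µmol/L and MOTS-c at 5 µmol/L. HNG is an analogue of humanin with glycine in place of a serine, and humanin and MOTS-c are short peptides with open reading frames in mitochondrial DNA. Untreated cells were not analysed here, so every value below is for cells under AngII, and the peptide comparisons share the 4 AngII libraries. The study's methods call the libraries of a group biological replicates, without saying whether they came from separate animals or cultures. The library names of replicates 2 and 3 share a number in each group. The p-values measure the spread between these libraries.

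Oxidative phosphorylation couples the oxidation of NADH and succinate to the synthesis of ATP in the inner mitochondrial membrane. Complexes I and II pass electrons to ubiquinone, complex III passes them on to cytochrome c, and complex IV, cytochrome c oxidase, hands them to oxygen. Complexes I, III and IV pump protons, and complex V, the ATP synthase, uses the proton gradient to make ATP. Mitochondrial DNA encodes a small set of subunits in every complex except complex II, and the other subunits are made from nuclear genes and imported. Several complex IV subunits have a widely expressed form and a second form typical of heart and skeletal muscle, such as Cox6a1 and Cox6a2 or Cox8a and Cox8b. Fibroblasts are usually described as more glycolytic than cardiomyocytes, with a smaller mitochondrial mass.

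Total counts ranged from 27960586 to 38322354 per library, and a gene with 3 counts stood at 0.0783 to 0.107 CPM, the unit that expresses counts relative to the size of their library. All 10 fibroblast markers were present in every library, with a summed level of 71931 to 79417 CPM. All 15 cardiomyocyte markers were also present in every library, with sums of 8003 to 9028 CPM in AngII, 8232 to 9626 CPM in AngII+HNG and 7305 to 9531 CPM in AngII+MOTS-c. Markers of other cell types were summed as well, without a test. The 9 smooth muscle and pericyte markers, of which Acta2 and Tagln are also known from activated fibroblasts, summed to 7296 to 7575 CPM in AngII, 6865 to 7507 CPM in AngII+MOTS-c and 5782 to 6309 CPM in AngII+HNG, which lay below both. The 7 endothelial markers summed to 69.1 to 78.0, 72.5 to 77.3 and 88.6 to 97.8 CPM in the same order, with AngII+HNG above both, and the 10 macrophage markers to 175 to 215, 175 to 208 and 205 to 279 CPM, which overlapped. The part of these cell types in the values below was not tested. In such bulk libraries, fewer cells of a type cannot be told apart from less RNA per cell. The 86 members together took 0.613 to 0.696% of all counts, against 3.16 to 3.52% for the 13 mitochondrially encoded subunits.

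Levels of different genes were compared only as FPKM, that is, scaled by gene length and by the reads of the library. Complex V held the most abundant member, Atp5f1b, the catalytic beta subunit of the F1 head, with a mean of 603 FPKM over the 12 libraries, followed by its partner Atp5f1a at 299.96 FPKM. The median over the 17 tested complex V genes was 114 FPKM, so Atp5f1b stood 5.31-fold above it, and the lowest was Atp5me, a small membrane subunit, at 19.8 FPKM. The 3 genes Atp5mc1, Atp5mc2 and Atp5mc3 encode the same mature subunit c of the rotating ring, and they contributed 16.9 to 23.3%, 37.0 to 41.4% and 38.7 to 42.7% of their summed FPKM. Atp5if1, the inhibitor that binds the ATP synthase when it would run backwards, stood at 92.7 FPKM.

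Complex IV had the highest median of the 5 complexes once tissue-specific paralogs and gene copies were set aside, at 130 FPKM over 10 genes, with Cox6a1 at 197 FPKM as the highest and Cox7c at 98.6 FPKM as the lowest. These 10 genes include Cox7a2l, which is named after Cox7a2. Cox4i1, which the symbol rule leaves out, and Ndufa4 are not among them. Complex III stood at a median of 83.0 FPKM, between Uqcrh, the hinge protein, at 105 FPKM and Uqcrb at 42.0 FPKM. The succinate dehydrogenase genes lay close together, with Sdhc, a membrane anchor, at 80.9 FPKM, Sdha, the flavoprotein, at 75.1 FPKM, Sdhb, the iron-sulphur subunit, at 70.0 FPKM and Sdhd, the other anchor, at 55.8 FPKM. Complex I had the lowest median, 46.2 FPKM over 36 genes, with Ndufb8 at 110 FPKM as the highest and Ndufa4, which is named after complex I but sits in complex IV, at 102 FPKM. Ndufs6, a zinc-binding accessory subunit, stood at only 1.31 FPKM with 13 to 24 counts per library. The symbols Ndufs6, Cox6b1, Uqcr10 and Uqcrb are older names of pseudogenes in RefSeq, Ndufa10 is an older name of the coding gene Ndufa10l1, and 41 members have a copy named after them, so their counts are uncertain where reads could be split between copies.

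**Figure D1:**
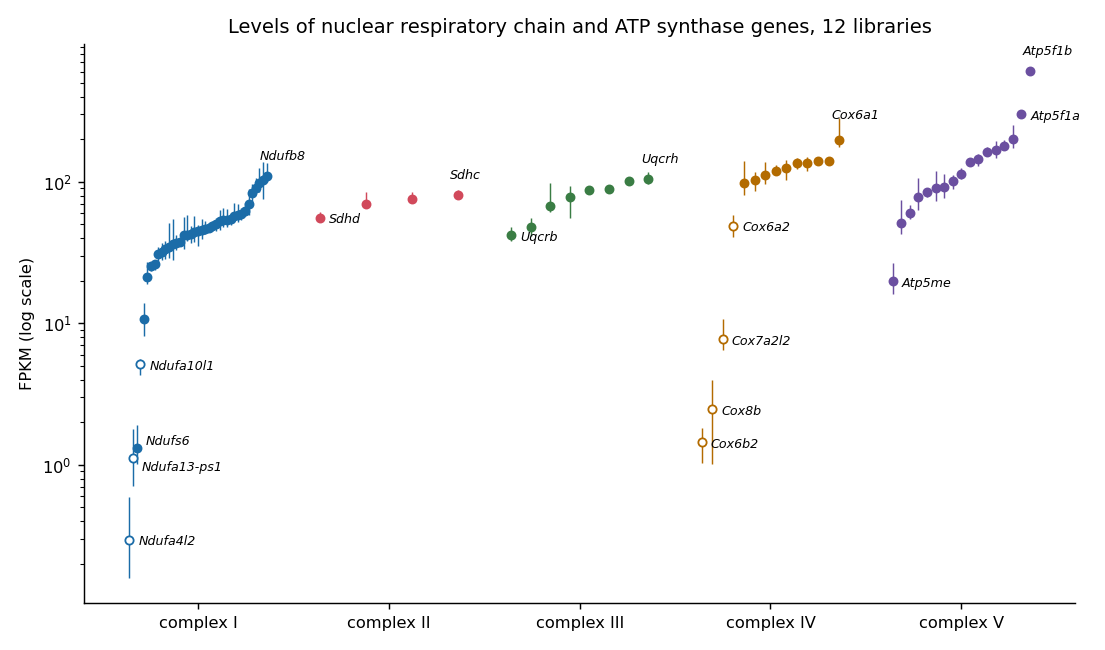
FPKM of the tested genes by complex on a log axis, with a point for the mean of the 12 libraries, a line from the lowest to the highest library, and hollow points for tissue-specific paralogs and gene copies. The filled points of complex IV lie between 98.6 and 197 FPKM, whereas those of complex V run from 19.8 to 603 FPKM.

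Among the paralogs typical of other tissues, Cox6a2 had by far the highest level. The heart and muscle form Cox6a2 had a mean of 49.0 FPKM and made up 17.1 to 22.4% of the Cox6a sum (19.7% ± 1.96 in AngII, 20.9% ± 2.55 in AngII+HNG and 19.6% ± 1.25 in AngII+MOTS-c, SD, n = 4), and the 3 groups overlapped. Cox8b, the muscle form of subunit VIII, had a mean of 2.47 FPKM and made up 0.811 to 2.64% of the Cox8 sum. Cox6b2, a form typical of testis, had 0.855 to 1.58% of the Cox6b sum, and Ndufa4l2, a hypoxia-responsive relative of Ndufa4, had 0.176 to 0.606% of theirs. The cardiomyocyte markers given above were present in the same libraries, and their part in the Cox6a2 and Cox8b levels was not tested. Cox7a1 and Uqcrhl were not analysed here, so Cox7a2 and Uqcrh, the widely expressed partners, have no paralog to be set against.

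The start-site regions of the members were searched for the letters of 4 factors, because nuclear respiratory factor 1 (NRF1), GABPA (also called NRF2) and YY1 are well known regulators of respiratory chain genes. Windows from 250 bases before to 50 bases after the start were taken from RefSeq on GRCr8 for the 74 members with an entry, and both strands were searched. The NRF1 letters GCGCATGCG were found in 6 members (8.11%), against 1.52% of all 33469 promoters and 3.01% of the 12264 promoters of tested genes. The GABPA letters CCGGAAGT were found in 8 members (10.8%), against 3.81 and 7.31%. The YY1 letters AAGATGGC were found in 16 members (21.6%), against 3.17 and 4.97%, and in 11 members they lay in the 50 bases after the start. The Sp1 letters GGGCGG were found in 43.2% of the members, against 33.1 and 59.6%. A match describes the letters only, and a missing match says nothing about the factor.

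The 100 bases before the start are shown for Cox8a and its muscle paralog Cox8b, for the muscle paralog Cox6a2, and for 3 genes of other complexes that hold these letters, 5′ to 3′ on the gene's strand, with the NRF1 or GABPA letters of either strand in capitals. Cox8a lies at chr1:213833624-213833723 and Cox8b at chr1:205408274-205408373, Cox6a2 at chr1:192219717-192219816, Uqcrh at chr5:134790883-134790982 and Atp5mc2 at chr7:135678219-135678318, all on the minus strand, and Ndufa11 lies at chr9:1637514-1637613 on the plus strand.
Cox8a: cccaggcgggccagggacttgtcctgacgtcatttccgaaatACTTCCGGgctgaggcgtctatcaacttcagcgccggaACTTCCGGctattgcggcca
Cox8b: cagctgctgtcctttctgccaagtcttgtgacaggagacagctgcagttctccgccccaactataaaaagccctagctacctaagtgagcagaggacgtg
Cox6a2: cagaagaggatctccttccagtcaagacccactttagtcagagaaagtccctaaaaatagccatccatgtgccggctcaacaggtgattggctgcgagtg
Uqcrh: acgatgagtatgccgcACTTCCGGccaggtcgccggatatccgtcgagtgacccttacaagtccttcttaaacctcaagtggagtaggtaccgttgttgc
Atp5mc2: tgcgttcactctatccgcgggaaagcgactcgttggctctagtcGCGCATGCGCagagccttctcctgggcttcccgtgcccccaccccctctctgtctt
Ndufa11: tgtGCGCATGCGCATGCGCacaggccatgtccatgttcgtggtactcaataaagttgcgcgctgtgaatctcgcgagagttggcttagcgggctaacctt
Cox8a holds the GABPA letters at 2 places, and the windows of Cox8b and Cox6a2 hold neither word. This does not separate widely expressed from muscle forms in general, since the GABPA letters were found in 2 and the NRF1 letters in 0 of the 14 complex IV members with an entry, and widely expressed genes such as Cox5a, Cox7b and Cox7c held neither.

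Libraries differed within groups for these genes, most of all in AngII+HNG. AngII+HNG replicate 3 was the highest of its 4 libraries for 57 of the 82 tested members (69.5%), against 30.0% of all 14352 genes tested in every comparison and 63.5% of the 990 of those genes under 1000 bases that are no members. Its median excess over the mean of the other 3 AngII+HNG libraries was 0.17 on the log2 scale over the 82 members, led by the pseudogene Ndufa13-ps1 at 0.79, the copy Cox7a2l2 at 0.69, and by the small subunits Ndufa1 at 0.66, Atp5mk at 0.65 and Cox6a1 at 0.61. Across the 82 genes, the excess had a Pearson correlation of -0.53 with log2 gene length, as a description of this library, since genes are not independent replicates. The members are short genes, with a median length of 656 bases against 2860 bases for all genes tested. AngII+HNG replicate 4 lay on the other side, as the lowest of its group for 38 members (46.3%), against 24.5% of all genes and 42.8% of the short genes that are no members. In the AngII group, which both peptides were compared with, replicate 2 was the highest for 44 members (53.7%, against 24.7% of all genes and 38.9% of the short genes), with a median excess of 0.079, and replicates 1 and 4 were the lowest for 33 members each (40.2%, against 22.9 and 28% of all genes and 32.7 and 37.6% of the short genes). For genes described singly, values that involve AngII+HNG are therefore also given without replicate 3.

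**Figure D2:**
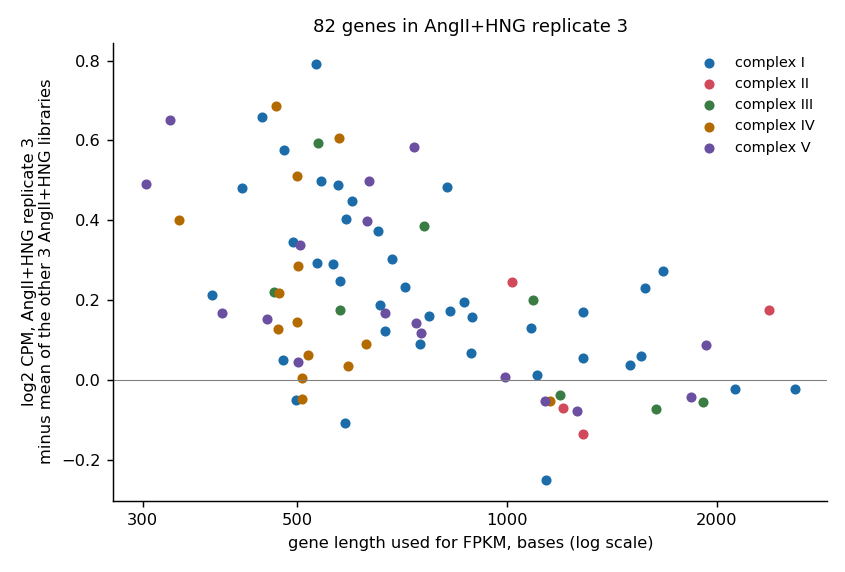
Log2 CPM of AngII+HNG replicate 3 minus the mean of the other 3 AngII+HNG libraries, for each gene, against gene length in bases on a log axis, with the 82 members marked by complex. Most members lie to the left, under 1000 bases, and above 0, around the median excess of 0.17.

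Each gene was tested on the counts of the 8 libraries of a pair of groups by the quasi-likelihood method of edgeR, and a gene was called when its p, adjusted by the Benjamini-Hochberg method over all genes tested, was below 0.05. No member passed this test between AngII+HNG and AngII, where 869 of 14524 genes did (5.98%). The smallest adjusted p of a member was 0.190, and DESeq2 and limma called 0 members as well. At an unadjusted edgeR p below 0.05, 4 members were higher with HNG (4.88%, against 11.1% of all genes) and Cox7b alone was lower (1.22%, against 9.16%). The 4 were Ndufb9, Ndufa8, Sdhb and Cox6a2. Both shares were below those of all genes tested. Without AngII+HNG replicate 3 the counts were 1 higher and 5 lower, and without AngII+HNG replicate 4 they were 7 and 0.

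The fitted log2 fold changes of the members under HNG were small, with a median of 0.027 against 0.0043 for all genes, a median standard error (SE) of 0.063 and a range from -0.15 to 0.58. Of the 82 members, 57 had a value above 0 and 25 below 0 (30.5%, against 48.7% of all genes). For the 1003 tested genes under 1000 bases that are no members, the median was 0.049, with 36.8% of values below 0 and 10.3% higher at an unadjusted p below 0.05. For the 58 members under 1000 bases it was 0.030, with 29.3% below 0 and 5.17% higher at that p. The medians by complex were 0.057 for complex I, 0.066 for complex II, -0.0071 for complex III, 0.020 for complex IV and 0.024 for complex V. Without AngII+HNG replicate 3, the median over the members turned to -0.015 and 34 values lay above 0, and the medians of complexes I, IV and V turned to -0.0053, -0.033 and -0.053. Without AngII+HNG replicate 4 the members' median was 0.063 with 62 values above 0, without AngII+HNG replicate 1 it was 0.051, and without AngII replicate 1 it was 0.017. With all libraries kept and a smooth curve of fold change on gene length subtracted, the median was -0.031 with 29 values above 0, beside a median of -0.021 over all genes in that setting. The sign of the members' median in this comparison thus depended on that library and on the treatment of gene length.

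Ndufb9, an accessory subunit of the membrane arm of complex I, had the smallest p of the members under HNG. It was measured at 51.5, 56.8, 56.1 and 55.2 CPM in AngII, at 60.0, 57.7, 63.4 and 57.2 CPM in AngII+HNG, and at 49.8, 53.5, 47.3 and 54.7 CPM in AngII+MOTS-c. All 4 AngII+HNG libraries lay above all libraries of the other groups, which overlapped each other. The log2 fold change of Ndufb9 between AngII+HNG and AngII was 0.12 ± 0.050 (SE), with an adjusted p of 0.190 in edgeR, and without replicate 3 it was 0.089 with 0.303.

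Ndufa8, an intermembrane-space accessory subunit of complex I, was at 41.9, 46.2, 48.2 and 45.5 CPM in AngII and at 49.2, 48.8, 55.1 and 46.4 CPM in AngII+HNG. These groups overlapped, and its log2 fold change of 0.14 ± 0.061 had an edgeR adjusted p of 0.224, against 0.087 and 0.401 without replicate 3. Sdhb was at 67.5, 70.1, 67.0 and 69.9 CPM in AngII and at 69.8, 72.9, 84.8 and 72.0 CPM in AngII+HNG, with the highest value again in replicate 3. Its log2 fold change was 0.13 ± 0.058 with an edgeR adjusted p of 0.230, and without replicate 3 it was 0.064. Its partners in complex II had values of 0.064 for Sdha, 0.011 for Sdhc and 0.069 for Sdhd, so that all 4 succinate dehydrogenase genes had a value above 0 and none passed the test. Without replicate 3, the values of these partners were 0.017, 0.028 and 0.10.

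Cox7b, a small membrane subunit of complex IV, was the only member with an unadjusted p below 0.05 on the lower side. It was at 66.5, 66.9, 62.8 and 60.7 CPM in AngII, at 58.5, 61.0, 61.7 and 50.5 CPM in AngII+HNG and at 56.6, 53.0, 48.3 and 58.8 CPM in AngII+MOTS-c. The AngII+HNG libraries overlapped with AngII, while all 4 AngII+MOTS-c libraries lay below all AngII libraries. With HNG its log2 fold change was -0.14 ± 0.063 with an edgeR adjusted p of 0.223, and without replicate 3 it was -0.18 with 0.125. The c-ring genes of complex V had log2 fold changes with HNG of 0.030 for Atp5mc1, 0.10 for Atp5mc2 and 0.072 for Atp5mc3, which became -0.11, 0.056 and 0.040 without replicate 3, and Atp5f1b had -0.062, or -0.053 without it. None of them passed the test. Ndufa4l2 had the largest fitted value, 0.58 ± 0.33 with an edgeR adjusted p of 0.362, on only 8 to 18 counts per library in these groups. It was at 0.289, 0.257, 0.243 and 0.347 CPM in AngII and at 0.639, 0.367, 0.362 and 0.365 CPM in AngII+HNG, which did not overlap. Without AngII+HNG replicate 1, its highest library, the value was 0.36 with an edgeR adjusted p of 0.597, and without replicate 3 it was 0.65 with 0.357.

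**Figure D3:**
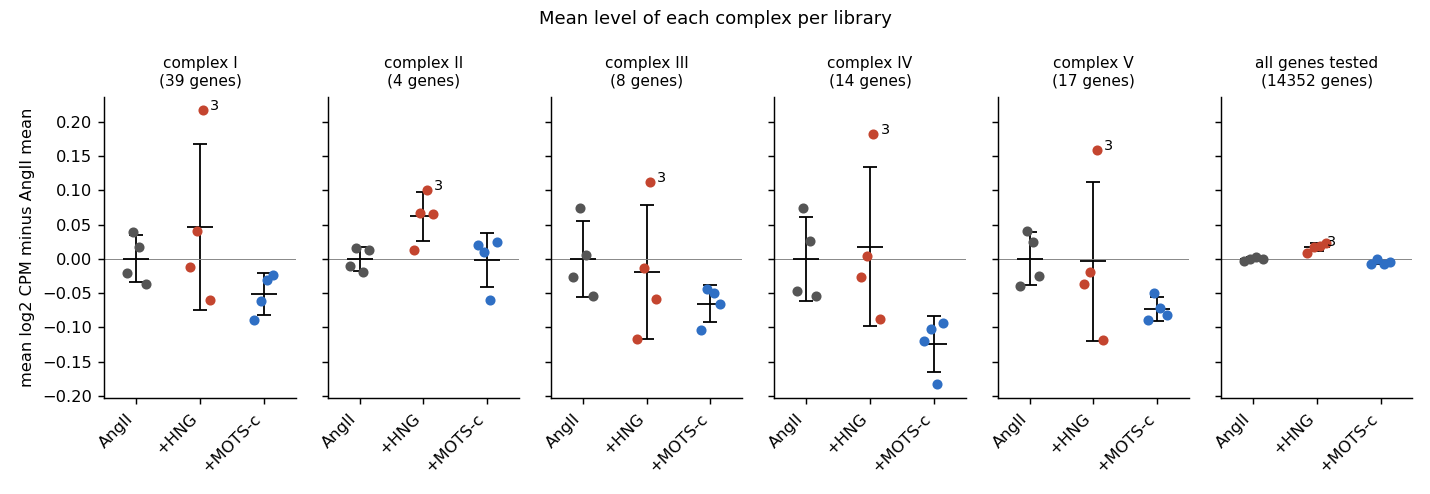
Mean log2 CPM of the tested members of each complex in each library, minus the mean of the 4 AngII libraries, with bars for group mean ± SD, a sixth panel for all 14352 genes tested and a 3 beside AngII+HNG replicate 3. That library stands highest in all 5 complexes, at 0.22 in complex I and 0.18 in complex IV, and the AngII+MOTS-c libraries of complexes IV and V lie below all AngII libraries.

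AngII+MOTS-c differed little from AngII across all genes, with a single gene called among 14488 (0.0069%), and no member was called by edgeR, DESeq2 or limma. At an unadjusted edgeR p below 0.05, however, 15 of the 82 members were lower with MOTS-c (18.3%, against 2.61% of all genes) and Ndufs7 alone was higher (1.22%, against 2.44%). With all 12 libraries in 1 fit, 9 members were lower at that p. Of the 82 members, 66 had a log2 fold change below 0 (80.5%, against 50.4% of all genes), with a median of -0.056 against -0.00076 for all genes. Averaged over the 82 members, log2 CPM relative to the AngII mean was -0.036 to 0.048 in the AngII libraries and -0.090 to -0.049 in those of AngII+MOTS-c, which did not overlap. Short genes as a whole leaned the same way, since 61 of the 1005 tested genes under 1000 bases that are no members were lower at an unadjusted p below 0.05 (6.07%), 64.9% of them had a value below 0 and their median was -0.036, while their per-library means of -0.032 to 0.042 in AngII and -0.047 to -0.0085 in AngII+MOTS-c overlapped. The 58 members under 1000 bases had a median of -0.070, with 22.4% lower at an unadjusted edgeR p below 0.05. The 24 members of 1000 bases or more had a median of -0.035, with 8.33% lower at that p and 75% below 0. With the length curve subtracted, the members' median was -0.021 with 56 values below 0, beside -0.00031 over all genes. Without AngII replicate 2 their median was -0.041 with 63 values below 0. All adjusted p-values of members were 0.924 or more, so no single member's difference passed the test over all genes. No test was made of the members as a group.

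The median log2 fold change under MOTS-c was below 0 in complexes I, III, IV and V and above 0 in complex II. Complexes I, III, IV and V hold most of the tested members. The 4 complex II values ran from -0.067 to 0.035. Values below 0 were found for 32 of 39 genes in complex I, 8 of 8 in complex III, 12 of 14 in complex IV and 13 of 17 in complex V, but for only Sdhc among the 4 genes of complex II. The medians were -0.040, 0.019, -0.059, -0.087 and -0.060 for complexes I to V, and with the length curve subtracted they were -0.014, 0.034, -0.030, -0.048 and -0.020. No test was made of these medians or of a difference between complexes. The 4 small membrane subunits of complex V, which lie beside the rotor and at the interface between ATP synthase dimers, had the lowest median, -0.17, and 3 of them had an unadjusted edgeR p below 0.05. Their gene lengths, 303 to 501 bases, were among the shortest of the members. At that p, 2.61% of all genes and 6.07% of the tested genes under 1000 bases that are no members were lower. The 10 complex IV genes left without tissue-specific paralogs and copies, Cox7a2l included, had a median of -0.089, and 9 of them were below 0. The 5 F1 subunits and the c-ring genes had medians of -0.019 and -0.013, and the core and Rieske subunits of complex III one of -0.019. Most of these genes are longer, up to 1932 bases for Atp5f1a in the F1 head and 1915 bases for Uqcrc2, and the part of gene length in this contrast was not tested.

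Averaged over the genes of a complex, the libraries showed the same order. For complex IV, the mean log2 CPM relative to the AngII mean was -0.047, 0.075, 0.026 and -0.054 in AngII, and -0.12, -0.10, -0.18 and -0.093 in AngII+MOTS-c. For complex V it was -0.040, 0.041, 0.024 and -0.025 in AngII, and -0.090, -0.049, -0.071 and -0.082 in AngII+MOTS-c. In both complexes all 4 AngII+MOTS-c libraries lay below all 4 AngII libraries. In complexes I, II and III the groups overlapped on this measure. The separation was not the same for summed levels, in which the abundant genes weigh most. For complex IV the summed FPKM was 1342 to 1450 in AngII and 1283 to 1323 in AngII+MOTS-c, without overlap. For complex V it was 2541 to 2662 and 2476 to 2579, which overlapped. For complex III the summed CPM was 649.6 to 682.9 in AngII and 633.6 to 644.0 in AngII+MOTS-c, without overlap, while its summed FPKM overlapped.

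Cox7b had the smallest p of the members under MOTS-c, with a log2 fold change of -0.24 ± 0.056 and an edgeR adjusted p of 0.924. Atp5mg, subunit g of the ATP synthase membrane domain, was at 74.2, 79.3, 78.6 and 71.5 CPM in AngII, at 77.4, 73.7, 74.7 and 66.5 CPM in AngII+HNG, and at 64.7, 70.8, 68.9 and 66.7 CPM in AngII+MOTS-c. Its AngII+MOTS-c libraries all lay below the AngII libraries, and its log2 fold change was -0.16 ± 0.043. Cox7c, another small membrane subunit of complex IV, was at 47.4, 52.7, 53.5 and 49.0 CPM in AngII, at 53.5, 49.8, 69.3 and 43.3 CPM in AngII+HNG, and at 40.1, 41.6, 48.4 and 43.1 CPM in AngII+MOTS-c. The 2 groups without HNG overlapped in 1 library of each, the AngII+HNG libraries spread most widely, and Cox7c had a log2 fold change of -0.22 ± 0.060 under MOTS-c.

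Atp5mf, subunit f of the same ATP synthase domain, was at 46.7, 51.2, 49.9 and 48.5 CPM in AngII and at 43.2, 43.2, 47.8 and 40.2 CPM in AngII+MOTS-c. One AngII+MOTS-c library lay among the AngII values, and the log2 fold change was -0.17 ± 0.052. The inhibitor Atp5if1 had a value of -0.16 ± 0.054 and Cox7a2 one of -0.16 ± 0.051, and Ndufa4 had -0.20 ± 0.076. Ndufs7, a core subunit that carries an iron-sulphur cluster next to the ubiquinone site of complex I, was the member on the higher side, at 0.14 ± 0.063. The adjusted p of each of these genes was 0.924 in edgeR.

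**Figure D4:**
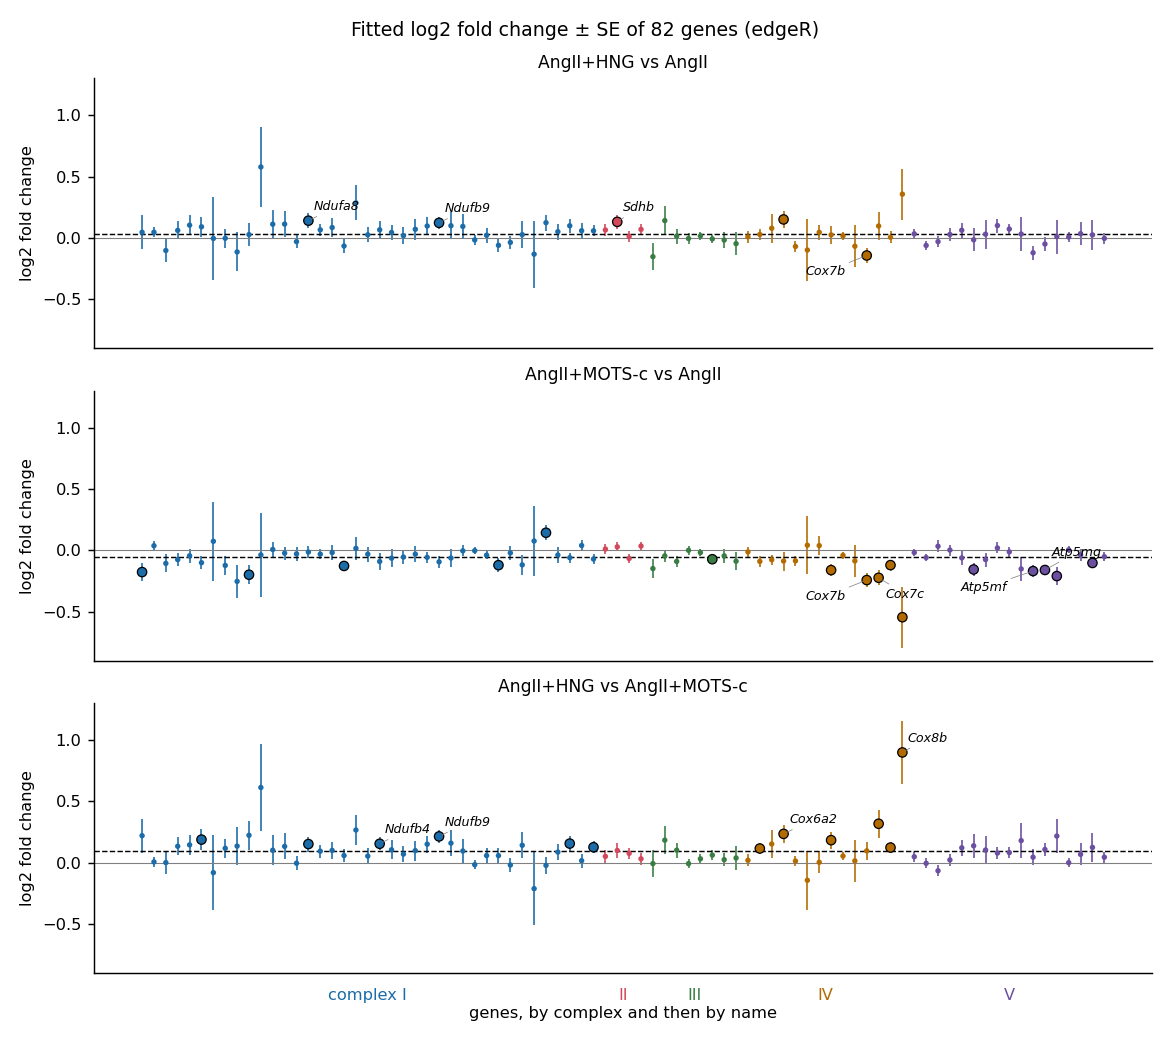
Fitted log2 fold change ± SE of the 82 tested members in the 3 comparisons, ordered by complex and then by name, with outlined points for an unadjusted edgeR p below 0.05, a dashed line at the members' median and names for the 4 smallest p. Most points under MOTS-c lie just below 0 around a median of -0.056, and most points of AngII+HNG against AngII+MOTS-c lie just above 0 around a median of 0.095.

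The direct comparison of the peptides gave the single call among the members. Between AngII+HNG and AngII+MOTS-c, 637 of 14448 genes passed the test (4.41%), and 1 of the 82 members did. This was Ndufb9, which was higher with HNG by 0.21 ± 0.055 on the log2 scale, with an edgeR adjusted p of 0.0474 and higher values in 4 of 4 libraries. The call lay close to the threshold. Its adjusted p ranged from 0.0115 to 0.159 over the alternatives, and leaving out any AngII+HNG library or AngII+MOTS-c replicates 1, 2 or 3 ended the call, with adjusted p-values from 0.0615 to 0.159. Without AngII+HNG replicate 3 the value was 0.18 with an edgeR adjusted p of 0.0787, and with the length curve subtracted it was 0.12, a value that carries no p.

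At an unadjusted edgeR p below 0.05, 12 members were higher in AngII+HNG than in AngII+MOTS-c (14.6%, against 10.4% of all genes) and 0 were lower (against 8.89% of all genes). Of the 82 members, 71 had a value above 0 and 11 below 0 (13.4%, against 49.4% of all genes), with a median of 0.095 against 0.0023 for all genes. Tested genes under 1000 bases that are no members had a median of 0.084, with 13.7% higher at an unadjusted p below 0.05 and 27.5% below 0. The median and the share at that p over all 82 members were close to those of these short genes, whereas fewer of the members' values lay below 0. The 58 members under 1000 bases had a median of 0.11, with 17.2% higher at that p and 10.3% below 0. The medians by complex were 0.10, 0.064, 0.035, 0.11 and 0.079 for complexes I to V, and all 10 complex IV genes left without tissue-specific paralogs and copies had values above 0. With the length curve subtracted, these medians were 0.016, 0.017, -0.031, -0.0021 and -0.0071, and without AngII+HNG replicate 3 they were 0.037, 0.048, 0.0092, 0.065 and 0.021, with Cox6a1, among the 10, at -0.025. Without that library the members' median was 0.027 with 59 values above 0 and 8 members higher at that p, and with the length curve subtracted it was 0.0030 with 42 above 0, beside a median of -0.021 over all genes in that setting.

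The muscle paralogs of complex IV followed Ndufb9 in the order of p. Cox8b was at 0.947, 0.885, 0.791 and 0.774 CPM in AngII, at 0.852, 0.997, 1.33 and 1.15 CPM in AngII+HNG, and at 0.608, 0.693, 0.350 and 0.643 CPM in AngII+MOTS-c. All AngII+MOTS-c libraries lay below those of the other groups, which overlapped each other, and these levels rest on only 10 to 44 counts per library. The log2 fold change of Cox8b between the peptides was 0.90 ± 0.26 with an edgeR adjusted p of 0.0703 and a range of 0.0294 to 0.176 over the alternatives, and without AngII+HNG replicate 3 it was 0.79 with 0.150. Between AngII+MOTS-c and AngII it was -0.55 ± 0.25. Its widely expressed partner Cox8a had values of 0.0046 with HNG, -0.12 with MOTS-c and 0.12 between the peptides, the last with an edgeR adjusted p of 0.144. Without replicate 3 the values that involve HNG were -0.012 and 0.11.

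Cox6a2 was at 21.3, 24.1, 26.1 and 25.1 CPM in AngII, at 26.1, 26.9, 28.7 and 25.1 CPM in AngII+HNG, and at 21.7, 22.9, 25.5 and 20.7 CPM in AngII+MOTS-c. The groups overlapped, and the log2 fold change between the peptides was 0.24 ± 0.071 with an edgeR adjusted p of 0.0872 and a range of 0.0244 to 0.221 over the alternatives. Without replicate 3 it was 0.20 with an adjusted p of 0.156. Its partner Cox6a1 had 0.15 ± 0.12, which became -0.025 without replicate 3. The testis form Cox6b2 had -0.14 and its partner Cox6b1 0.014, and Ndufa4l2 had 0.61 and Ndufa4 0.22, none of which passed the test. Without replicate 3 these values were -0.13, 0.0032, 0.68 and 0.086, and without AngII+HNG replicate 1 that of Ndufa4l2 was 0.39. Of the 15 cardiomyocyte markers, Tnni3, cardiac troponin I, was the 1 that passed the test in the comparisons with HNG. This is near the share of all genes, of which 5.98% passed against AngII and 4.41% against AngII+MOTS-c. Tnni3 had the lowest level of the 15, at 21.5 to 39.7 CPM. It was higher with HNG by 0.43 against AngII, with an edgeR adjusted p of 0.0131, and by 0.54 against AngII+MOTS-c, with 0.00597. Without replicate 3 these values were 0.37 with 0.0228 and 0.48 with 0.011. The sum of the 15 markers overlapped between the groups. The part of cardiomyocyte RNA in the Cox8b and Cox6a2 values was not tested.

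Ndufb4, another membrane-arm accessory subunit of complex I, completed the 4 smallest p-values. It was at 24.0, 26.3, 26.0 and 25.2 CPM in AngII+HNG and at 23.3, 22.8, 23.0 and 22.0 CPM in AngII+MOTS-c, while the AngII libraries ran from 21.4 to 26.5 CPM and covered that whole range. The peptide groups did not overlap, and the log2 fold change of 0.15 ± 0.054 had an edgeR adjusted p of 0.132, against 0.14 and 0.191 without replicate 3. The hinge protein gene Uqcrh had 0.025 in this comparison, and -0.018 and -0.045 against AngII with HNG and MOTS-c. Without replicate 3 it had -0.023 between the peptides and -0.066 with HNG.

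**Figure D5:**
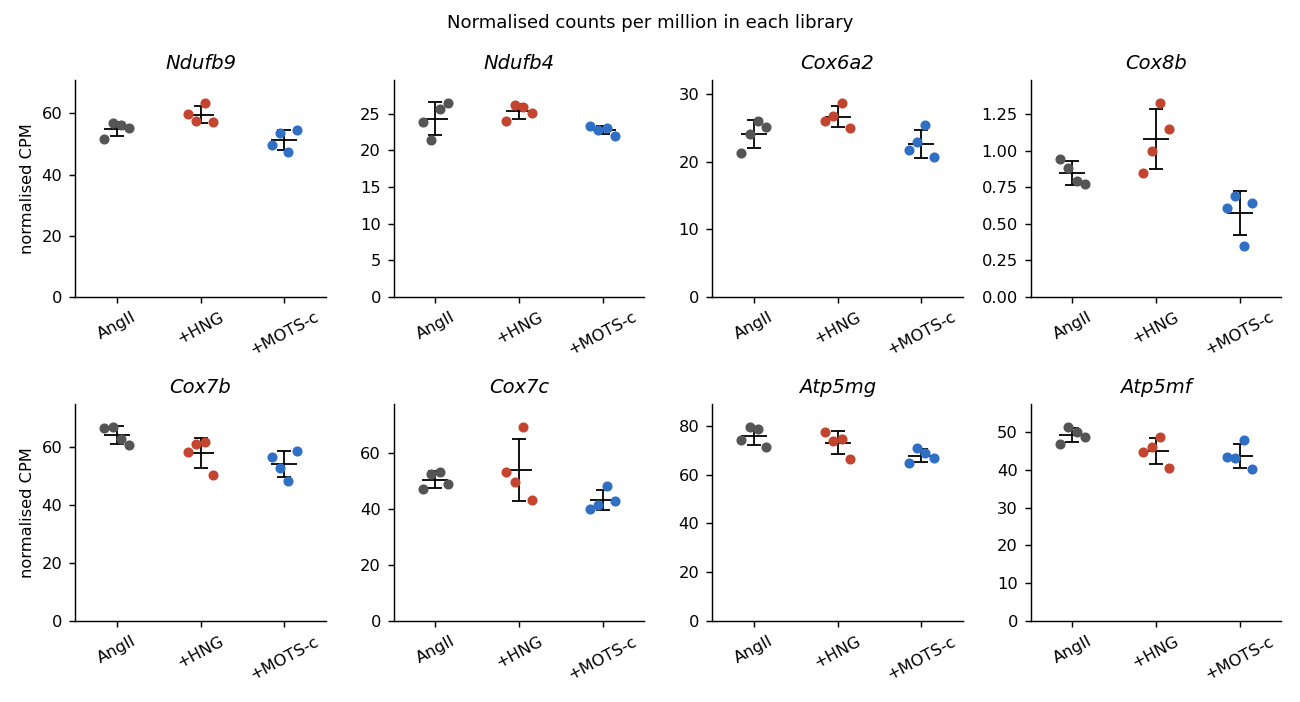
Normalised CPM in each library for the 8 genes Ndufb9, Ndufb4, Cox6a2, Cox8b, Cox7b, Cox7c, Atp5mg and Atp5mf, each axis starting at 0, with lines for group mean ± SD (n = 4). For Ndufb9 the AngII+HNG libraries lie between 57.2 and 63.4 CPM, above those of both other groups, and for Cox8b the AngII+MOTS-c libraries lie lowest, between 0.350 and 0.693 CPM.

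The members also differed in how steady they were. Over the 12 libraries, the coefficient of variation of CPM was 2.15% for Uqcrc2, a core subunit of complex III, and 2.24% for Ndufs1, the largest subunit of complex I, whereas it was 20.6% for Ndufs6, 30.9% for Cox8b, 31.6% for Ndufa13-ps1 and 33.7% for Ndufa4l2. The last 4 genes all had under 50 counts in every library.

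Nuclear subunits that the symbol rule leaves out had no call in any comparison. With HNG against AngII, the log2 fold change was 0.039 for Cox4i1 and -0.017 for Cox4i2, the paralogs of complex IV subunit 4, 0.081 for Cyc1, the cytochrome c1 of complex III, 0.0041 for Cycs, the electron carrier cytochrome c, and -0.071 for Ndufab1, the acyl carrier protein in complex I, with edgeR adjusted p-values from 0.4996 to 0.967. Without replicate 3 these values were 0.0044, -0.021, 0.014, 0.0017 and -0.14. With MOTS-c against AngII their values ran from -0.068 to 0.014. The 13 mitochondrially encoded subunits had medians of 0.011 with HNG and -0.010 with MOTS-c and no call.

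Among the genes that build or regulate the complexes, 16 complex I assembly factors, 36 assembly factors of complexes II to V and 19 regulators of mitochondrial biogenesis were tested, and a single gene passed in a single comparison. The comparison was AngII+HNG against AngII, where 5.98% of all genes passed, so 1 call among these genes is no more than that share. The gene was Gabpb2, which encodes a beta subunit that pairs with GABPA, at 23.6, 21.2, 24.2 and 24.1 CPM in AngII and at 26.7, 26.2, 26.5 and 27.7 CPM in AngII+HNG. These groups did not overlap, and Gabpb2 was higher with HNG by 0.21 ± 0.056 on the log2 scale with an edgeR adjusted p of 0.0473. Leaving out any single library ended this call, with adjusted p-values from 0.056 to 0.144, and without replicate 3 the value was 0.21 with 0.056. The difference against AngII+MOTS-c was 0.12 with an adjusted p of 0.232. GABPA itself, Gabpa, had a value of -0.09 with HNG, Nrf1 had 0.066 and Ppargc1a, the coactivator PGC-1alpha, had 0.17, with edgeR adjusted p-values of 0.332, 0.556 and 0.459. Without replicate 3 they had -0.076, 0.098 and 0.24. Under MOTS-c against AngII, the medians were 0.0031 for the complex I assembly factors, 0.00052 for those of complexes II to V and 0.0031 for the regulators.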

How the data were processed

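The 12 libraries were made from TRIzol RNA with a Hieff NGS Ultima Dual-mode mRNA kit and sequenced as paired ends on DNBSEQ. The submitters' processing notes name HISAT2, Picard 1.41 and SAMtools 0.1.18. The counting tool, its strand setting and the genome build are not given in the sources used here. The authors deposited a table of raw read counts per gene and a table of FPKM, which the authors scaled by gene length and library reads.

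The members follow from a rule on symbols alone, but that rule and the gene lists were set with earlier results of these data known. Counts were tested with edgeR 4.0.16 (R 4.3.3) by the quasi-likelihood F test with TMM factors, filterByExpr and Benjamini-Hochberg adjustment over all genes tested, on the 8 libraries of each pair of groups, and SE was taken as the fold change over the root of F. CPM is normalised by TMM, and log2 CPM has a prior count of 2. FPKM served for levels between genes. Gene length was worked out from counts and FPKM. DESeq2 1.42.0, limma 3.58.1 on log2 FPKM plus 1 or 0.1, and the other alternatives are described with their effect below. Named genes were members called in any comparison, the 4 smallest p in each, the highest and lowest FPKM of each complex, tissue paralogs with their partners, the subunit c genes, Atp5if1, the Sdh genes and listed genes that were called. Ndufs7, Ndufs6, Atp5f1a, Tnni3, Gabpa, Nrf1 and Ppargc1a were added after their values were seen. Uqcrc2 and Ndufs1 were named for their low variation, and Ndufa13-ps1, Cox7a2l2, Ndufa1 and Atp5mk for their excess in AngII+HNG replicate 3. Ndufa11 and Cox5a were named by their start-site letters. Scripts were tested on simulated data.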

Additional observations from a re-analysis of the deposited data

Results flagged for a closer look

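Ndufb9 differed between the peptide effects, by a test of the difference itself: AngII+HNG lay above AngII+MOTS-c by 0.21 on the log2 scale (edgeR adjusted p = 0.0474, higher in 4 of 4 libraries). The call held in only 5 of 18 alternatives, not all of which give a p, and leaving out any AngII+HNG library ended it. Of 129 groups of 4 libraries examined for a single library far from the others, over complex means and named genes, 5 held such a library, where chance gives about 1 in 20. Sdha and Uqcrh stood at 201 and 66.0 CPM in AngII+HNG replicate 3, the highest of that group. Ndufa4l2 stood at 0.639 CPM in AngII+HNG replicate 1, the highest of its group, on 18 counts. Atp5me stood at 6.86 CPM in AngII replicate 4, the highest of its group, and Ndufb8 at 67.6 CPM in AngII+MOTS-c replicate 1, the lowest of its group.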

How the results depend on the processing

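In AngII+HNG against AngII and in AngII+MOTS-c against AngII, 0 members were called under all 18 alternatives that give a call. In AngII+HNG against AngII+MOTS-c, the count of 1 became 2 with DESeq2 (Cox6a2 and Ndufb9), 2 with all 12 libraries in 1 fit (Cox8b and Ndufb9), 3 with an adjusted p below 0.1, and 0 without a low count filter, with replicates 2 and 3 summed, with limma on log2(FPKM + 0.1) and with the replicates numbered 4 omitted. The single call was Cox8b with limma on log2(FPKM + 1). Leaving out 1 library at a time gave 0 to 1, and without AngII+MOTS-c replicate 3 the call was Cox6a2. Members at an unadjusted edgeR p below 0.05 then ran from 0 to 7 higher and 0 to 5 lower under HNG (0 and 1 without AngII replicate 1, 1 and 0 without AngII replicate 2, 1 and 1 without AngII replicate 4 or AngII+HNG replicate 2), from 10 to 18 lower under MOTS-c (10 without AngII replicate 3, beside 22 with the replicate block and 10 with replicates 2 and 3 summed), and from 6 to 27 higher in AngII+HNG against AngII+MOTS-c (6 without AngII+MOTS-c replicate 1, 7 without AngII+MOTS-c replicate 3 or AngII+HNG replicate 2, 27 without AngII+HNG replicate 4). A replicate block gave 3 (Cox7c, Cox6a2 and Ndufb9), but the sources do not say whether libraries of the same number share a preparation. The correlations of same-numbered libraries ran from -0.0755 to 0.212, and replicate 4 alone matched its own number best in all 3 comparisons. Whether the libraries are paired was not settled by these values. The block called 0 members in the other comparisons. With the length curve subtracted, the median of complex II was 0.029 in AngII+HNG against AngII, that of complex V was -0.020 in AngII+MOTS-c against AngII, and those of complexes II, III, IV and V were 0.017, -0.031, -0.0021 and -0.0071 between the peptides. The cause of these differences between settings was not tested. Under MOTS-c, the medians of complexes I, III, IV and V stayed below 0 in all alternatives. They ran from -0.062 to -0.014, from -0.082 to -0.030, from -0.11 to -0.048 and from -0.074 to -0.020, in that order. The median of complex II stayed above 0, from 0.0021 to 0.038. Members under 1 FPKM and the copies named above rest on few or ambiguous reads. The Gabpb2 call held with DESeq2, with all 12 libraries in 1 fit and with the replicate block, and was lost under all other alternatives that give a p, with adjusted p-values up to 0.144.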
